A study of Mus musculus with 6 samples.

Results

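The genes described here are 50 members of the Wnt pathway, picked by symbol from the deposited count table: 10 Frizzled receptors, 9 co-receptors and other receptors, 12 feedback inhibitors and secreted antagonists, 7 genes of ligands and their maturation, 7 genes of cytoplasmic transduction and 5 nuclear factors. All 50 were found among the 42365 rows of the table, and 48 passed the filter on low counts. RNA came from a mouse NPC line, neural progenitors grown in culture, which can form neurons as well as glia. Groups were labelled knockout clone 2 and labelled knockout clone 1, both with the genotype label KO, and parental cells labelled WT. Each group had 2 libraries, which the labels call separate clones for the parental cells and repeats of 1 clone for each knockout group. The labels name no further allele, agent, strain or age, and do not say that the libraries of a clone are separate cultures. Where single libraries serve as replicates, the p-values hold only against library-to-library spread, some or all of which may be technical.

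Wnt proteins are secreted lipid-modified ligands that bind Frizzled receptors and a co-receptor, Lrp5 or Lrp6. Binding holds back a cytoplasmic complex of Axin, Apc and the kinase Gsk3b that otherwise marks beta-catenin (Ctnnb1) for degradation, so that beta-catenin can act with Tcf and Lef factors in the nucleus. Cells that receive the signal commonly switch on inhibitors of it, among them Axin2, Nkd1, Notum and the ubiquitin ligases Znrf3 and Rnf43, which remove Frizzleds from the cell surface. In neural progenitors the pathway is known for its part in proliferation and regional patterning.

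The libraries held 58871554 to 69530032 counts. Genes with a count numbered 31262 and 30747 in clone 2, 32686 and 32130 in clone 1, and 37678 and 37419 in parental cells. The labels name 2 library kits and assign neither to a library, so a difference in kit between the groups could not be told apart from one in genotype. The part of the difference in detected genes in the falls of low members below was not tested. Values below are CPM (read counts scaled to a common library size by the trimmed mean of M values) in the order of the libraries' numbers. Summed over 12 markers of neural progenitors, the level was 5190 to 5210 CPM in clone 2, 4570 to 4590 in clone 1 and 5260 to 5270 in parental cells, with 11 of the 12 at 1 CPM or more in each group. Of these 12, 5 were called higher and 4 lower in labelled knockout against parental (75%, against 26.7% of all genes tested), with a median log2 fold change of -0.02. Markers of other cell types also moved with the groups. The 8 astrocyte markers summed to 2810 to 2850 CPM in clone 2, 1900 to 1950 in clone 1 and 8410 to 8570 in parental cells, with none at 0, and 1 was called higher and 4 lower in labelled knockout against parental (median log2 fold change -2.37). The 8 oligodendrocyte markers summed to 622 to 629 CPM, 486 to 520 and 260 to 264 in the same order of groups. Of the 7 tested, 1 was called higher and 2 lower, with a median of -0.54, and the one called higher, Cspg4, held most of the sum, at 574 and 582 CPM in clone 2, 420 and 452 in clone 1, and 187 and 184 in parental cells. The 8 neuron markers summed to 1040 to 1060 CPM in clone 2, 1350 to 1500 in clone 1 and 1070 in parental cells, mostly Map2 at 1047 and 1023, 1480 and 1325, and 970 and 977 CPM. Of these 8, none was called higher and 4 lower, with a median of -2.07. Microglia, endothelium, fibroblast and pluripotent cell lists summed to at most 9.07 CPM in any library. The part of these differences in the results below was not tested, and in such bulk samples fewer cells of a type and less RNA per cell cannot be told apart.

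The main comparison asked how labelled knockout clones differ from parental cells, with the 2 clones as replicates (the libraries of a clone added) and edgeR's quasi-likelihood test at an adjusted p of 0.05. Of the 48 members tested, 15 rose and 6 fell, while 27 did not pass. Calls were made among Frizzleds (6 of 10), co-receptors (3 of 9), feedback genes and antagonists (7 of 11) and ligands (4 of 7), with 1 of 7 in the cytoplasmic core and 0 of 4 among nuclear factors, and the roles were not tested against each other. One of the 6 that fell, Sfrp1, reached the filter's cutoff in parental columns only, so it was tested only because it is higher in parental cells and is no support for a fall. Among all 24506 genes tested, 26.7% passed, 13% higher and 13.6% lower. The members' own shares were 31.2% higher and 12.5% lower. Their median log2 fold change, 0.04, was close to the median of all genes, 0.03. The middle of the list was thus not shifted, whereas the share called higher was above that of all genes. A change of at least 1 on the log2 scale was called in 10 members that rose and 6 that fell, against 6.83% higher and 9.64% lower (16.5% in all) among all genes. Members are mostly well-expressed genes, which pass more often. In a fit restricted to genes averaging 5 CPM or more, 13 of 35 members rose (37.1%) and 1 fell (2.86%), against 17.6% and 16.8% of all 11025 genes. The 15 genes that rose all had a mean of at least 5 CPM over the libraries, whereas 5 of the 6 that fell (Fzd6, Rnf43, Nkd2, Sfrp1 and Wnt5b) were under it. Annotated exons of 12 members overlap a gene on the opposite strand, over 0.721% to 29.4% of their exon bases, and without strand such reads cannot be told apart. These are Fzd5 (17.8%), Fzd6 (3.15%), Axin2 (3.8%), Notum (29.4%), Sfrp2 (16.1%), Wnt5a (4.58%), Wnt7b (6.61%), Ctnnb1 (14.6%), Dvl1 (0.721%), Dvl2 (18.3%), Tcf7l1 (4.56%) and Lef1 (13.7%). Leaving out parental library 1 or 2 leaves 1 parental column, so the spread rests on the clone columns alone. Fewer genes of any kind were called in these runs. The log2 fold changes of Wif1 were then 2.92 and 2.89, against 2.91 with all libraries. Those of Fzd6 were -3.10 and -3.26, against -3.18.

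**Figure D1:**
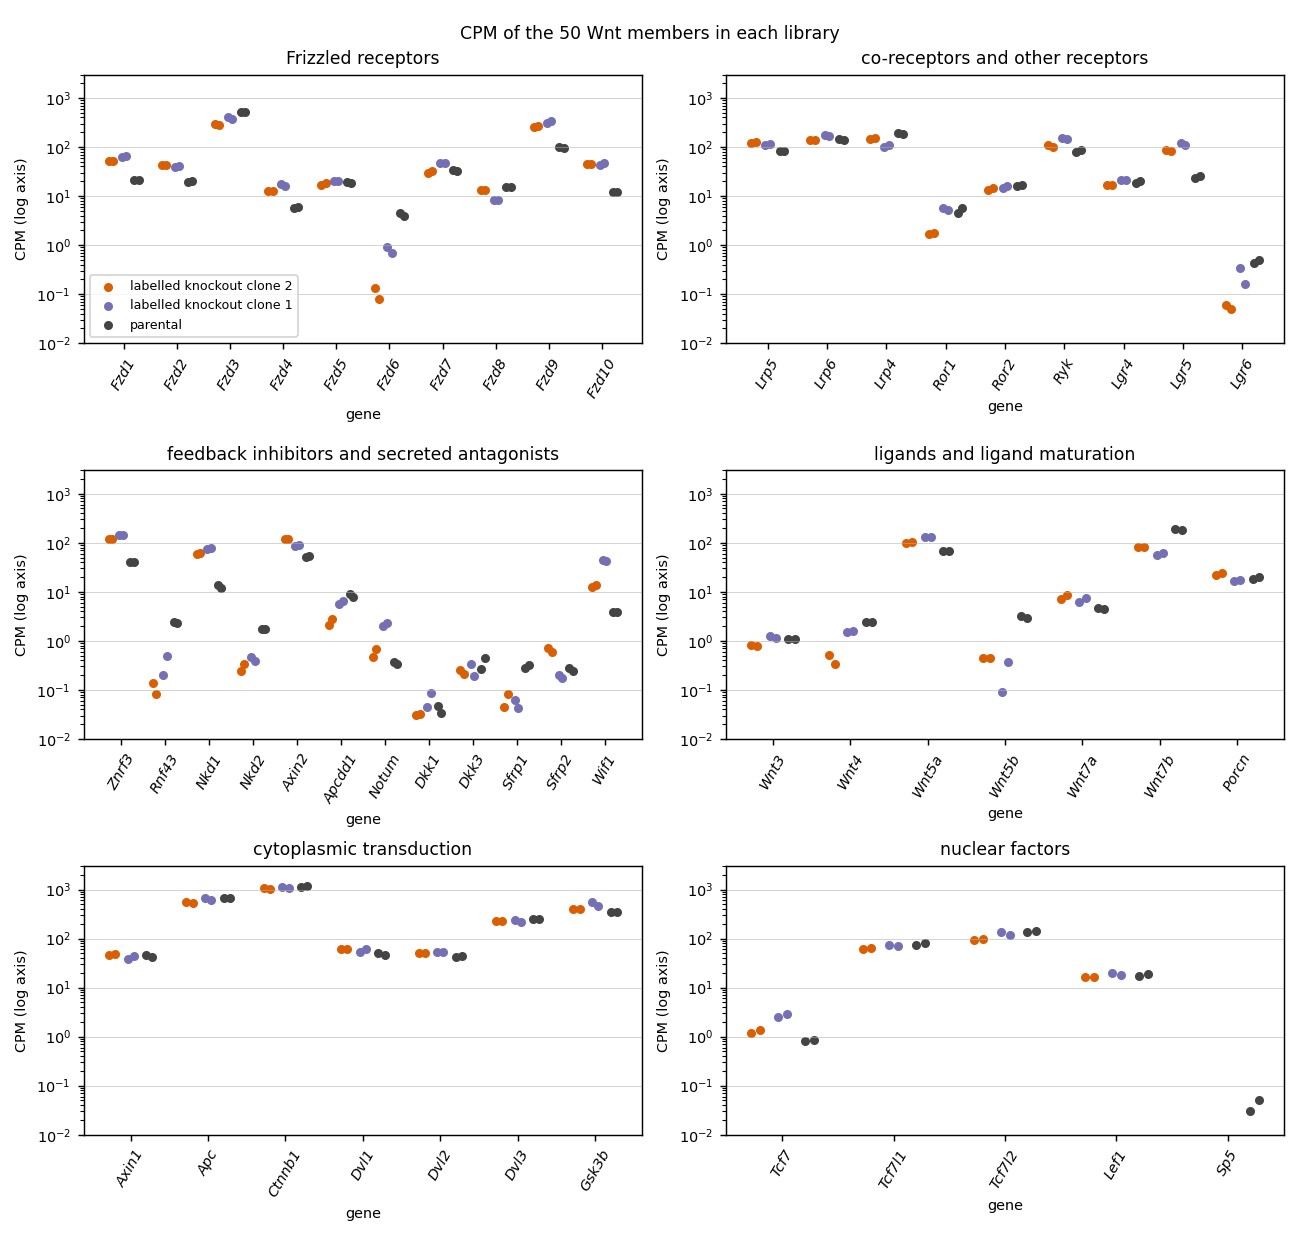
CPM on a log axis of the 50 members in each of the 6 libraries, 1 panel for each role and 2 points for each group; libraries with 0 counts have no point. Libraries of a group lie apart for some low genes, such as Wnt5b in clone 1 at 0.0915 and 0.379 CPM. Nkd1, Znrf3, Lgr5 and Wif1 stand above their parental level in all 4 labelled knockout libraries.

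**Figure D2:**
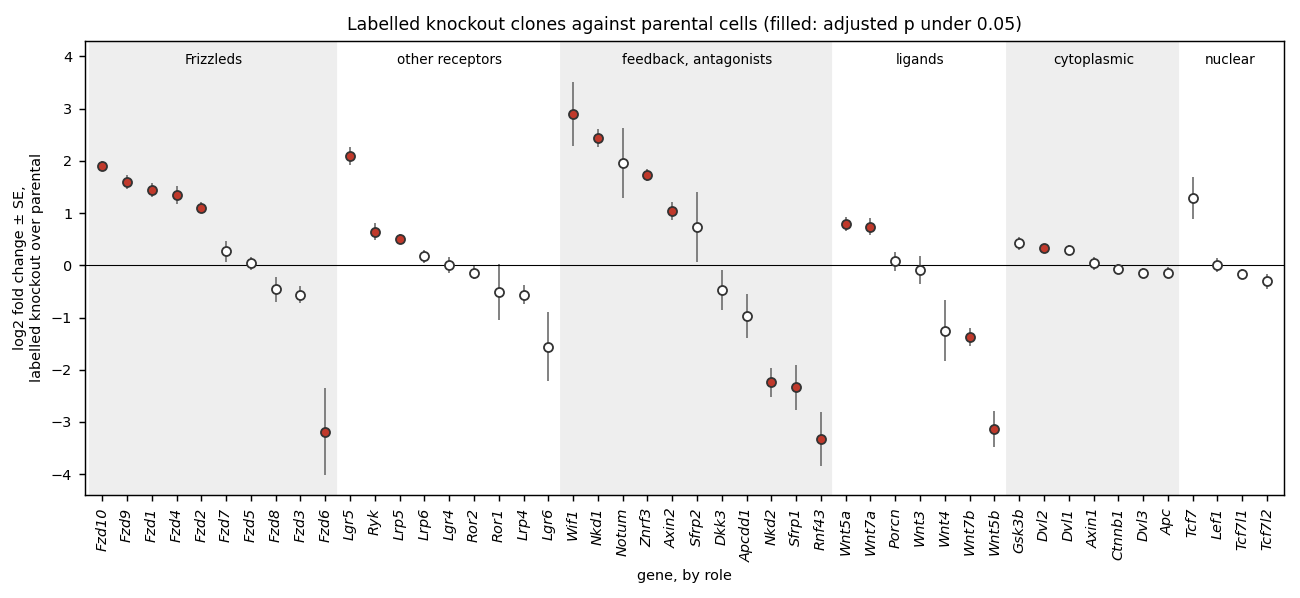
Log2 fold change with its SE of the 48 tested members, labelled knockout over parental, by role, with filled points for an adjusted p under 0.05. The highest point is Wif1 (2.91) and the lowest is Rnf43 (-3.33); the 7 cytoplasmic members lie between -0.15 and 0.42.

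Among the 10 Frizzled receptors, 5 rose, 1 fell and 4 did not pass. Fzd10 (chr5:128600844-128604093, GRCm38, plus strand) had 43.9 and 46.0 CPM in clone 2 and 42.0 and 46.8 in clone 1, against 12.2 and 12.1 in parental cells. Both clones stood at the same height above parental cells, and Fzd10 rose by 1.91 (log2, SE 0.10, adjusted p = 0.000375). Fzd9 (chr5:135248938-135251230, minus strand), a receptor known from hippocampal development, had 251 and 263 CPM in clone 2, 310 and 343 in clone 1, and 100 and 96.5 in parental cells. All 4 labelled knockout libraries lay above both parental ones, clone 1 the higher, and the change was 1.60 (SE 0.13, adjusted p = 0.00126). Fzd1 (chr5:4753839-4758035, minus strand) had 50.9 and 50.7 CPM in clone 2 and 62.2 and 64.4 in clone 1, against 21.2 and 21.5 in parental cells. The groups did not overlap, and Fzd1 rose by 1.45 (SE 0.13, adjusted p = 0.00158). All 3 of these genes lie on chromosome 5, where the median log2 fold change over 1648 tested genes was 0.03. Fzd4 (chr7:89404355-89413134, plus strand), which is also the receptor of norrin, was at 12.6 and 12.8 CPM in clone 2, 17.2 and 16.1 in clone 1, and 5.79 and 5.93 in parental cells. Fzd2 (chr11:102604396-102608058, plus strand) was at 42.8 and 42.0 CPM in clone 2, 39.0 and 40.5 in clone 1, and 19.2 and 19.8 in parental cells. For both genes every labelled knockout library exceeded every parental one, with log2 fold changes of 1.35 for Fzd4 (SE 0.17, adjusted p = 0.0051) and 1.11 for Fzd2 (SE 0.10, adjusted p = 0.00171).

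Fzd6 (chr15:39006034-39038188, plus strand), a receptor of planar cell polarity, went the other way. It had 0.136 and 0.0811 CPM in clone 2 and 0.899 and 0.685 in clone 1, against 4.41 and 3.97 in parental cells. The clone 2 values rest on 9 and 5 counts, and the 3 groups lay apart from each other. Fzd6 fell by 3.18 (SE 0.83, adjusted p = 0.049). The call was lost without either parental library, without the second library of clone 1 (adjusted p = 0.0623) or with no filter on low counts (0.155). The 4 other Frizzleds did not pass. Fzd3, which guides axons, was at 289 and 278 CPM in clone 2 and 416 and 375 in clone 1, against 507 and 518 in parental cells. All labelled knockout libraries were lower, and with a log2 fold change of -0.56 (SE 0.16) its adjusted p of 0.0572 missed the threshold. It passed with DESeq2 (0.0186), with upper quartile scaling (0.0406), and without the first library of clone 1 (0.0258) or the second of clone 2 (0.0477). Fzd5, Fzd7 and Fzd8 had log2 fold changes of 0.04, 0.27 and -0.46.

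Levels of different genes can be compared only per length, here as CPM per kilobase of merged exon. On that scale Fzd9 led the Frizzleds in each group, with 112 in clone 2, 142 in clone 1 and 42.9 in parental cells. In parental cells Fzd3 was next to it at 40.0, whereas in clone 2 and clone 1 Fzd3 was at 22.2 and 30.9. Fzd9 thus held 60.5% of the summed Frizzled level in clone 2 and 61.8% in clone 1, against 38.5% in parental cells. The lowest was Fzd6, at 0.0225, 0.164 and 0.869 in the same order of groups.

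**Figure D3:**
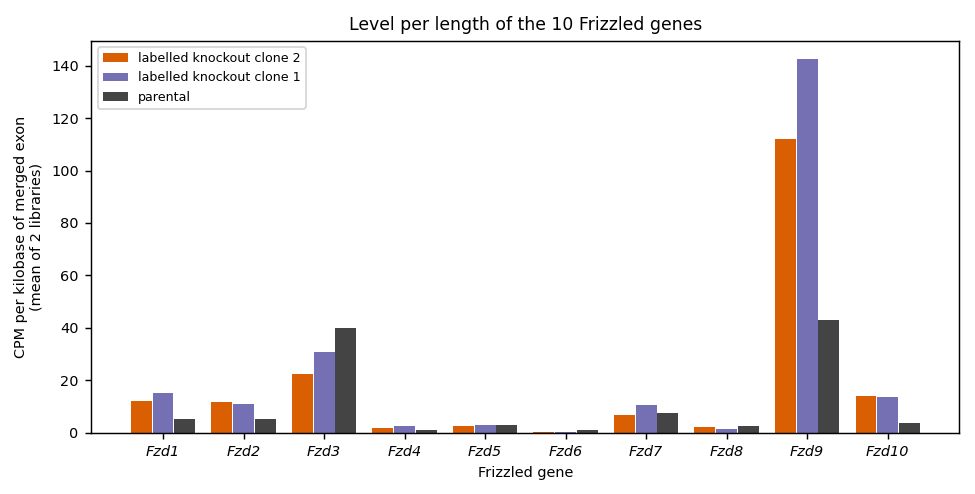
Level per length (CPM per kilobase of merged exon, mean of 2 libraries, linear axis from 0) of the 10 Frizzled genes in clone 2, clone 1 and parental cells. Fzd9 stands above the rest in the clones at 112 and 142, while in parental cells Fzd9 and Fzd3 are close, at 42.9 and 40.0.

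Promoters of 6 members are shown, those of the 3 Frizzleds of chromosome 5 that rose, of the feedback gene Axin2, and of the paralogs Nkd1 and Nkd2, which moved in opposite directions. Each runs from 250 bases before to 50 after a RefSeq start (GRCm38.p6). Capitals mark the core of the Tcf and Lef binding motif, CTTTGA, on either strand (TCAAAG on the other one), and a run with no capitals holds no match. Only the Fzd1 window held one.
Fzd1, chr5:4758167-4758466, minus strand: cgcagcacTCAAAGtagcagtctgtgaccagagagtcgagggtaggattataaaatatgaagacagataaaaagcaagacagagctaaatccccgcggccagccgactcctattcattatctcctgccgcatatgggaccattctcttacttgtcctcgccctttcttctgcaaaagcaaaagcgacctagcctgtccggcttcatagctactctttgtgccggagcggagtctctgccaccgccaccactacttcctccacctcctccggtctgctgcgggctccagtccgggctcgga
Fzd9, chr5:135250998-135251297, minus strand: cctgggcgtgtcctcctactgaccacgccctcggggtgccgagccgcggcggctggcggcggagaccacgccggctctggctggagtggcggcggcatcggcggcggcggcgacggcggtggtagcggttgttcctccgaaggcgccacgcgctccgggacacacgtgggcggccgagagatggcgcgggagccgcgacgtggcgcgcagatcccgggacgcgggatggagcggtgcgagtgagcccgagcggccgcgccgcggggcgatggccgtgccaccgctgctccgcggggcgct
Fzd10, chr5:128600856-128601155, plus strand: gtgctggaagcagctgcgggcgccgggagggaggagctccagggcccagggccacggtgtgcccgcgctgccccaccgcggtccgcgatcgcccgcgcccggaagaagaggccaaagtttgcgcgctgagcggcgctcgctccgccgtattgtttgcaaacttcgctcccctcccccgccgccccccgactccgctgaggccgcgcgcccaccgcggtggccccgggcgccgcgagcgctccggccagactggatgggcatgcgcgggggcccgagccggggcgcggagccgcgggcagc
Axin2, chr11:108920099-108920398, plus strand: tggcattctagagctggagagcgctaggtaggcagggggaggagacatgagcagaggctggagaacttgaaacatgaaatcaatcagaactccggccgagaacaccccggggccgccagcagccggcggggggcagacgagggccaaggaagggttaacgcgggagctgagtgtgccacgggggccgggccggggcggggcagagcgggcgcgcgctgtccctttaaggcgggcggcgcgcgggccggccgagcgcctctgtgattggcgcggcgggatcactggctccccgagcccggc
Nkd1, chr8:88527383-88527682, plus strand: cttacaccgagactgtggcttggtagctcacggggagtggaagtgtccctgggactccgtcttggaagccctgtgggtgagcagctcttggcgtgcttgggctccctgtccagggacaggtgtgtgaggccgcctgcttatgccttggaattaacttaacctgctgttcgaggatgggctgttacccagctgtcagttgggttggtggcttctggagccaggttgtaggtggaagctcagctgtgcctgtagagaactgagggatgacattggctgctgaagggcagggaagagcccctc
Nkd2, chr13:73847582-73847881, minus strand: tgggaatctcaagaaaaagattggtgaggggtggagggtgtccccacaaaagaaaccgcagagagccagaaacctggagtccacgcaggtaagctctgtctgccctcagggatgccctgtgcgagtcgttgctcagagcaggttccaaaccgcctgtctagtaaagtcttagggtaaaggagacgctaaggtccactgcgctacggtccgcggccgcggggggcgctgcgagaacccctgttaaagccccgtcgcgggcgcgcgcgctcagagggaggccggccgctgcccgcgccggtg

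The RefSeq starts of the Nkd1, Fzd10 and Fzd9 windows lie 6279, 262 and 183 bases downstream of the outermost GENCODE start of the gene and that of Fzd1 lies upstream of it, so other starts of these genes were not searched. The promoter table held 41 windows of 32 members, 7 of them with the motif (17.1%), against 5257 of 32851 windows in all (16%). Of the 10 windows of members that rose, 1 held it. The members' windows had a median GC content of 66.7%, against 52.7% over all windows.

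The 9 co-receptors and other receptors had 3 members that rose and 6 that did not pass. Lgr5 (chr10:115450311-115587780, minus strand), a receptor of the R-spondins that marks stem cells of several tissues, had 86.2 and 81.8 CPM in clone 2, 123 and 112 in clone 1, and 23.3 and 25.1 in parental cells. Both clones lay far above parental cells, clone 1 the higher, with a log2 fold change of 2.09 (SE 0.17, adjusted p = 0.00126). Its relatives did not follow. Lgr4, at 16.5 to 21.5 CPM over all libraries, had a log2 fold change of 0.01 (SE 0.15). Lgr6 was under 0.5 CPM in every library and did not pass (adjusted p = 0.15). The filter kept it only through its parental columns, with 1 labelled knockout column at the cutoff, so its lower values are a description. Its adjusted p was 0.0376 without the first library of clone 1 and 0.000977 with libraries as replicates, which is no support for a fall. Ryk, a Wnt receptor with an inactive kinase domain, was at 109 and 102 CPM in clone 2, 152 and 144 in clone 1, and 79.7 and 85.5 in parental cells. Lrp5 was at 119 and 124 CPM in clone 2, 107 and 114 in clone 1, and 83.7 and 83.9 in parental cells. Neither gene's groups overlapped, and the rises were small, 0.65 for Ryk (SE 0.17, adjusted p = 0.0423) and 0.50 for Lrp5 (SE 0.09, adjusted p = 0.0162). Both calls were lost without either parental library. That of Ryk was also lost without the second library of clone 1 (adjusted p = 0.0702) or the first of clone 2 (0.0689). The Ryk call was lost too with the size factors of DESeq2 (0.0563), upper quartile scaling (0.06) or a mean of at least 5 CPM (0.0667). The other co-receptor of Frizzleds, Lrp6, had 0.17 (SE 0.12). Lrp4, which can bind Wnt antagonists, was at 144 and 151 CPM in clone 2, 100 and 108 in clone 1, and 192 and 187 in parental cells, and its change of -0.56 (SE 0.18, adjusted p = 0.0738) did not pass, although it did with DESeq2 (0.0171) and without the first library of clone 1 (0.0462). Ror1 and Ror2, receptor kinases for Wnt5a, had -0.51 (SE 0.54) and -0.14 (SE 0.12).

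Feedback inhibitors that act inside the cell or at its membrane split by paralog. Nkd1 (chr8:88521354-88594884, plus strand), which binds Dishevelled and is a common Wnt target, had 58.7 and 61.3 CPM in clone 2, 75.4 and 77.3 in clone 1, and 14 and 11.7 in parental cells. Every labelled knockout library was above both parental ones, and Nkd1 rose by 2.44 (SE 0.16, adjusted p = 0.000688). Its paralog Nkd2 (chr13:73818534-73847631, minus strand) had 0.241 and 0.341 CPM in clone 2 and 0.473 and 0.393 in clone 1, against 1.71 and 1.78 in parental cells. This low gene was lower in all 4 labelled knockout libraries and fell by 2.24 (SE 0.28, adjusted p = 0.00454).

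Znrf3 and Rnf43, the pair of related ubiquitin ligases, split in the same way. Znrf3 (chr11:5276324-5444847, minus strand) had 121 and 119 CPM in clone 2, 147 and 141 in clone 1, and 41.1 and 40.0 in parental cells. The groups did not overlap, and Znrf3 rose by 1.73 (SE 0.11, adjusted p = 0.000648). Rnf43 (chr11:87662722-87735539, plus strand) had 0.136 and 0.0811 CPM in clone 2 and 0.198 and 0.495 in clone 1, against 2.46 and 2.29 in parental cells. It was low in parental cells and lower still in the clones, where 5 to 34 counts stood against 158 and 135, and it fell by 3.33 (SE 0.51, adjusted p = 0.0092). Axin2 (chr11:108920349-108950783, plus strand), an Axin scaffold gene widely used as a readout of beta-catenin signalling, had 119 and 121 CPM in clone 2, 87.4 and 88.8 in clone 1, and 50.7 and 52.9 in parental cells. Here clone 2 was the higher clone, and Axin2 rose by 1.04 (SE 0.17, adjusted p = 0.0103). Without parental library 1 its adjusted p was 0.051. Apcdd1, a membrane inhibitor of Wnt reception, had -0.97 (SE 0.42, adjusted p = 0.154), with clone 2 at 2.08 and 2.84 CPM, clone 1 at 5.59 and 6.39, and parental cells at 8.94 and 7.97.

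Among the secreted antagonists, Wif1 (chr10:121033960-121100650, plus strand), which binds Wnt proteins outside the cell, had the largest rise of all members. It was at 12.4 and 13.7 CPM in clone 2 and 45 and 41.8 in clone 1, against 3.86 and 3.8 in parental cells. The 3 groups were well apart, and the log2 fold change was 2.91 (SE 0.61, adjusted p = 0.0302). The adjusted p was 0.401 without parental library 1, 0.411 without parental library 2 and 0.124 with no filter on low counts. Notum, an enzyme that strips the lipid from Wnt proteins, was at 0.468 and 0.697 CPM in clone 2, 2.03 and 2.27 in clone 1, and 0.374 and 0.339 in parental cells. All labelled knockout libraries were above parental cells, clone 2 by little, and the change of 1.96 (SE 0.68, adjusted p = 0.0918) did not pass, although it did with DESeq2 (0.0217). Sfrp1, a decoy for Wnt proteins, had 3 and 5 counts in clone 2 and 4 and 3 in clone 1, against 18 and 19 in parental cells. It reached the filter's cutoff in the parental columns only, so its log2 fold change of -2.34 (SE 0.44, adjusted p = 0.0165) is given as a description. The adjusted p was 0.0955 and 0.138 without parental library 1 or 2. Sfrp2 and Dkk3 were under 1 CPM in every library and did not pass. Dkk1, an antagonist that binds Lrp6, had 2 to 6 counts in each library and was not tested.

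The 7 ligand and ligand maturation genes had 2 members that rose, 2 that fell and 3 that did not pass. Wnt7b (chr15:85535437-85582473, minus strand), a ligand of the developing brain, had 80.2 and 83.0 CPM in clone 2 and 56.0 and 61.4 in clone 1, against 187 and 186 in parental cells. All labelled knockout libraries were below parental cells, clone 1 the lowest, and Wnt7b fell by 1.38 (SE 0.17, adjusted p = 0.00473). Wnt5b (chr6:119432531-119544347, minus strand) had 0.453 and 0.438 CPM in clone 2 and 0.0915 and 0.379 in clone 1, against 3.24 and 2.92 in parental cells. The groups did not overlap, although the libraries of clone 1 held 6 and 26 counts, and Wnt5b fell by 3.13 (SE 0.35, adjusted p = 0.00325). Its paralog Wnt5a, which mostly signals without beta-catenin, had 98.6 and 102 CPM in clone 2, 128 and 130 in clone 1, and 68.3 and 66.5 in parental cells. Wnt7a, the paralog of Wnt7b, had 7.21 and 8.5 CPM in clone 2, 6.10 and 7.47 in clone 1, and 4.58 and 4.37 in parental cells. These paralogs thus stood above parental cells in all 4 labelled knockout libraries and rose by 0.80 (Wnt5a, SE 0.13, adjusted p = 0.012) and 0.74 (Wnt7a, SE 0.16, adjusted p = 0.0267). Both calls were lost without parental library 1 (0.0763 and 0.234) or 2 (0.09 and 0.28), and that of Wnt7a also without the second library of clone 1 (0.0737). Per length, Wnt7b was the leading ligand of parental cells at 38.1 CPM per kilobase, with Wnt5a at 8.61. In clone 2 they stood at 16.7 and 12.8, and in clone 1 at 12 and 16.5. Wnt3 (-0.09, SE 0.27), Wnt4 (-1.25, SE 0.58) and Porcn (0.07, SE 0.18), which attaches the lipid to Wnt proteins, did not pass.

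In the cytoplasmic core log2 fold changes ran from -0.15 to 0.42. Of 7 members, 1 rose and 6 did not pass. With single libraries as replicates, 3 were higher and 3 lower in clone 2 (85.7%, against 53.5% of all genes). In clone 1, 3 were higher and 1 lower (57.1%, against 54.5%). Gsk3b, Dvl1 and Dvl2 were called higher and Dvl3 lower in both clones. Ctnnb1, which encodes beta-catenin, had 1077 and 1045 CPM in clone 2, 1103 and 1073 in clone 1, and 1140 and 1163 in parental cells. All labelled knockout libraries were slightly below parental cells, with a log2 fold change of -0.07 (SE 0.08, adjusted p = 0.597). Apc (-0.15, SE 0.11), Axin1 (0.04, SE 0.12) and Dvl3 (-0.14, SE 0.08) also did not pass, nor did the kinase gene Gsk3b (0.42, SE 0.13, adjusted p = 0.066) or Dvl1 (0.29, SE 0.10, adjusted p = 0.0861). With no filter on low counts Gsk3b (0.0195) and Dvl1 (0.0447) passed, and Dvl1 also without the first library of clone 1 (0.0432). Dvl2, which relays the signal from Frizzleds, rose by 0.33 (SE 0.09, adjusted p = 0.0456). It shares 18.3% of its exon bases with the opposite-strand gene Acadvl, which had 13549 counts over the 6 libraries against 19007 for Dvl2. The call of Dvl2 was lost without either parental library, without the second library of clone 1 (adjusted p = 0.0876) or the first of clone 2 (0.0604). It was also lost with the size factors of DESeq2 (0.0654), upper quartile scaling (0.0929), the test of DESeq2 (0.0801) or a mean of at least 5 CPM (0.0583).

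None of the 4 nuclear factors tested passed with edgeR and the clones as replicates, where 26.7% of all genes did, and 4 genes are few for such a share. With single libraries as replicates, Tcf7 was called higher and Tcf7l1 and Tcf7l2 lower in each clone (75% of the 4). Of all genes, 53.5% were called in clone 2 and 54.5% in clone 1. The call of Tcf7 in clone 2 was lost with DESeq2 (adjusted p = 0.0967). Those of Tcf7l1 (-0.13) and Tcf7l2 (-0.14) in clone 1 were lost with no filter on low counts (0.254 and 0.122). That of Tcf7l1 in clone 1 was also lost with DESeq2 (0.0705). Each of these calls was lost as well in some runs that left out 1 library. Tcf7l1, which acts mainly as a repressor, was the highest of the 4 per length in each group. It was at 16.2 CPM per kilobase in clone 2, 18.1 in clone 1 and 19.8 in parental cells. Tcf7l2 followed at 10.8, 14.6 and 16.1 in the same order. Their log2 fold changes were -0.17 (SE 0.10) and -0.31 (SE 0.15), and Lef1 had 0.01 (SE 0.13). Tcf7 was at 1.19 and 1.35 CPM in clone 2, 2.55 and 2.91 in clone 1, and 0.810 and 0.864 in parental cells. Each clone was above parental cells, and with 1.28 (SE 0.41, adjusted p = 0.0724) Tcf7 did not pass. It passed with DESeq2 (0.0322) and with no filter on low counts (0.0376). The Wnt target Sp5 had no count in any labelled knockout library and 2 and 3 counts in the parental ones, where 3 counts of a library correspond to 0.0437 to 0.0509 CPM, so no difference was detectable at this depth.

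Each clone was also set against the parental libraries in a fit of the 6 libraries, which treats libraries of a clone as replicates. In clone 2, 20 members rose and 20 fell, against 26.7% and 26.8% of the 23400 genes tested (83.3% of the members in all, against 53.5% of genes). Changes of at least 1 were called for 11 members higher and 10 lower, against 8.9% and 12.9% of genes (21.8% in all). In clone 1, 21 rose and 15 fell, against 27.3% and 27.2% of genes (54.5% in all). Changes of at least 1 were called for 11 members higher and 6 lower, against 9.15% and 12.6% of genes (21.7% in all). Among genes averaging 5 CPM or more, 85.7% of 35 members were called in clone 2, against 71.2% of genes. In clone 1 the shares were 82.9% and 72.8%. These comparisons share the parental libraries, with each other and with the one above. Sfrp1 counts among the members that fell in each. Lgr6 (-3.01), which the main comparison's filter kept only through its parental columns, counts among those that fell in clone 2. Neither is support for a fall. The widest effects in clone 2 were those of Nkd1 (2.22, SE 0.07) and Fzd6 (-5.24, SE 0.28). In clone 1 they were those of Wif1 (3.50, SE 0.09) and Wnt5b (-3.68, SE 0.33).

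Set directly against each other, the clones differed in 34 of the 48 members, and in most of these clone 2 was the lower. In clone 2 against clone 1, 8 members were higher and 26 lower, or 16.7% and 54.2%, against 16.1% and 20.3% of all genes (36.4% in all). In the fit restricted to genes averaging 5 CPM or more, 71.4% of 35 members were called, nearer to the 60.1% of 11019 genes. In that fit 20% of the members were higher and 51.4% lower, against 30.3% and 29.8% of genes. The members' median log2 fold change was -0.29, against -0.01 over all genes. A difference of at least 1 was called for 1 member that was higher and 9 that were lower, against 2.79% and 3.62% of all genes (6.41% in all). Of the Frizzleds, 1 was higher (Fzd8) and 7 lower in clone 2, and Fzd2 and Fzd10 did not pass. Wif1, with the values given above, had -1.74 (SE 0.07, adjusted p = 4.1e-11) in clone 2 against clone 1. Ror1 had 1.66 and 1.75 CPM in clone 2 against 5.58 and 5.13 in clone 1, and 4.47 and 5.75 in parental cells. Clone 1 overlapped parental cells and clone 2 was below both, so that Ror1 differed between the clones by -1.65 (SE 0.15, adjusted p = 3.89e-07). Wnt4 had 0.513 and 0.341 CPM in clone 2 against 1.52 and 1.60 in clone 1, and 2.46 and 2.39 in parental cells. Clone 2 was the lowest group and parental cells the highest, and the clones differed by -1.86 (SE 0.24, adjusted p = 1.27e-05). For Notum the difference was -1.89 (SE 0.24, adjusted p = 1.12e-05), for Apcdd1 -1.29 (SE 0.15, adjusted p = 3.68e-06) and for Tcf7 -1.11 (SE 0.18, adjusted p = 0.000142). Fzd6 differed by -2.83 (SE 0.35, adjusted p = 8.94e-06). Rnf43 (-1.66, SE 0.49, adjusted p = 0.0146) and Lgr6 (-2.13, SE 0.62, adjusted p = 0.0133) rest on few counts, with 9 and 5 for Rnf43 and 4 and 3 for Lgr6 in clone 2. The call of Rnf43 was lost without the second library of clone 1, where the difference was -0.85 (adjusted p = 0.27), or of clone 2 (0.126), and that of Lgr6 without the first library of clone 1 (0.154) or either library of clone 2 (0.0566 and 0.0827). The member higher in clone 2 by at least 1 was Sfrp2, with 47 and 37 counts in clone 2, 13 and 12 in clone 1, and 18 and 14 in parental cells. Clone 2 stood alone above the others, by 1.80 over clone 1 (SE 0.37, adjusted p = 0.00116).

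**Figure D4:**
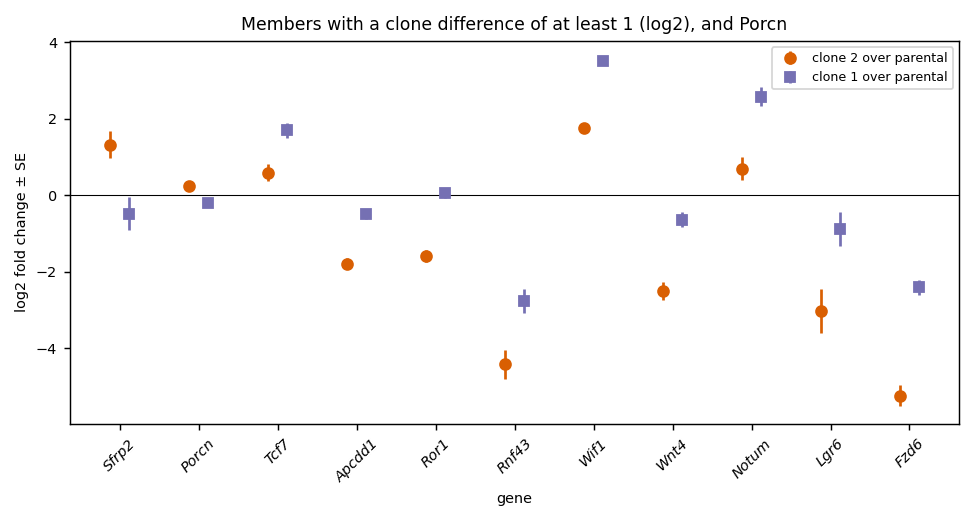
Log2 fold change with its SE of 11 members, clone 2 over parental and clone 1 over parental, ordered by the difference between the clones: the 10 with a called difference of at least 1, and Porcn. Sfrp2 and Porcn lie above 0 in clone 2 and below it in clone 1, and Fzd6 has the widest gap, at -5.24 in clone 2 and -2.40 in clone 1.

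Some chromosomes carried a shift of their own. On chromosome 15, which holds Wnt7b and Fzd6, the median log2 fold change over 872 tested genes was -0.29 in clone 2 and -0.32 in clone 1. On chromosome 11, which holds 8 members, it was 0.17 in clone 2 and -0.12 in clone 1 over 1608 genes, and 0.24 for clone 2 against clone 1. The medians of the 18 other chromosomes ran from -0.05 to 0.08 in clone 2 and from -0.03 to 0.12 in clone 1. Relative to its chromosome's median, Wnt7b was at -0.91 in clone 2 and -1.35 in clone 1. Axin2, whose clone 2 value exceeded that of clone 1 by 0.45 (SE 0.05, adjusted p = 1.11e-06), exceeded it by 0.21 relative to the median of chromosome 11. Znrf3, on the same chromosome, had a log2 fold change of -0.26 in clone 2 against clone 1 (SE 0.04, adjusted p = 0.000218), or -0.49 relative to that median. The part of these shifts in the members' values was not tested further.

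**Figure D5:**
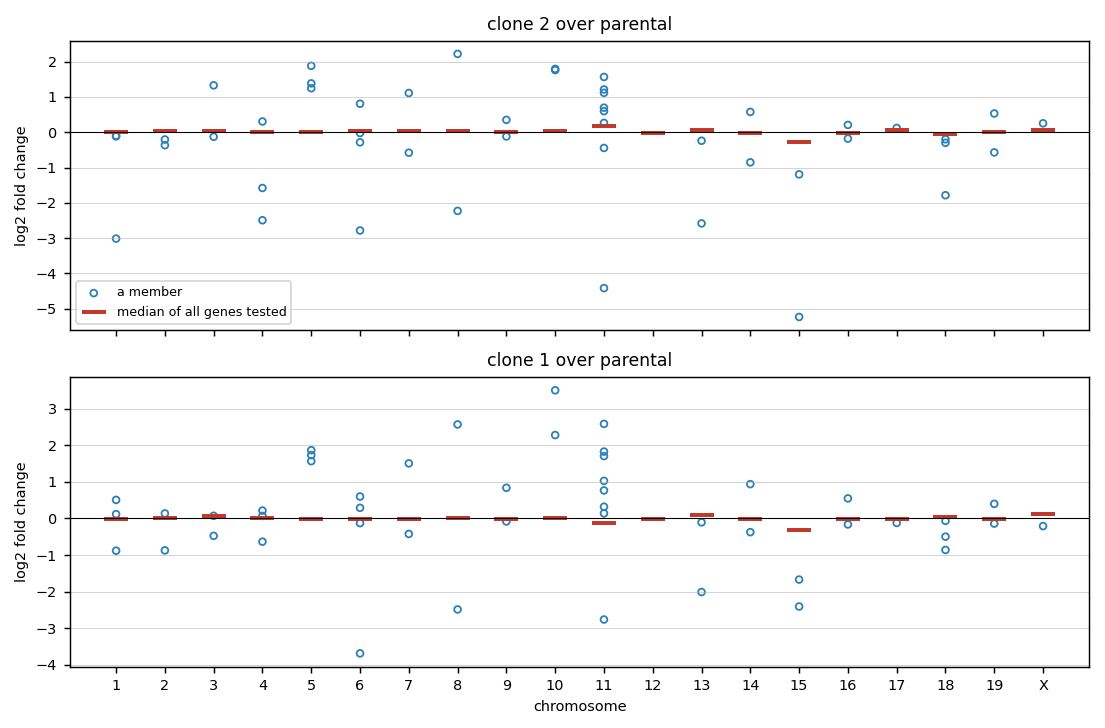
Log2 fold change of the tested members by chromosome (open circles) and the median over all genes tested on each chromosome (bars), clone 2 over parental above and clone 1 over parental below. The bars of chromosome 15 lie at -0.29 and -0.32 and those of chromosome 11 at 0.17 and -0.12, while the members spread far more widely than the bars.

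Beyond the members, 102 other genes of the pathway were listed, and 85 were tested with the clones as replicates. Of these 16 rose and 15 fell, 18.8% and 17.6%, against 13% and 13.6% of all genes. Extracellular modulators had 6 of 17 members higher and 0 lower at the adjusted threshold. The smallest of these rises was that of Tspan12, a co-receptor for norrin, with 152 and 142 CPM in clone 2, 193 and 158 in clone 1, and 90.5 and 91.9 in parental cells (0.85, SE 0.11, adjusted p = 0.00474). Sostdc1, a secreted inhibitor, had the largest, with 5.95 and 6.31 CPM in clone 2, 56.5 and 50.1 in clone 1, and 0.296 and 0.458 in parental cells (6.33, SE 1.39, adjusted p = 0.0416). Both calls were lost without either parental library, for Sostdc1 at 0.556 and 0.551 and for Tspan12 at 0.0564 and 0.0515, and that of Sostdc1 also without the first library of clone 1 (0.058) or with no filter (0.19).

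Other destruction complex and scaffold genes had 4 of 19 higher and 1 lower (26.3%, near the 26.7% of all genes). Frat2, which binds Gsk3 kinases, rose by 1.69 (SE 0.19, adjusted p = 0.00332), at 3.98 and 4.98 CPM in clone 2, 5.35 and 5.37 in clone 1, and 1.54 and 1.56 in parental cells. Apc2 fell by 2.27 (SE 0.51, adjusted p = 0.0324), at 9.05 and 9.55 CPM in clone 2, 3.08 and 3.42 in clone 1, and 30.2 and 32.0 in parental cells. The call of Apc2 was lost without either parental library (0.274 and 0.283) and with no filter (0.141). Beta-catenin co-factors had 4 of 13 higher and 1 lower (38.5%, against 26.7% of all genes). Their extremes were 2 Groucho co-repressors that went opposite ways. Tle2 had 98.8 and 99.5 CPM in clone 2, 99.0 and 99.2 in clone 1, and 12.6 and 12.9 in parental cells (2.99, SE 0.09, adjusted p = 0.000145). Tle1 had 66.8 and 65.8 CPM in clone 2 and 83.5 and 84.3 in clone 1, against 143 and 146 in parental cells (-0.91, SE 0.13, adjusted p = 0.00672).

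Planar cell polarity genes serve the branch of the pathway that works without beta-catenin. With the clones as replicates, 6 of 13 were lower (46.2%, against 13.6% of all genes) and 0 higher, with a median of -0.43. The largest fall was that of Daam2, at 1.92 and 1.30 CPM in clone 2 and 2.99 and 3.25 in clone 1, against 24.8 and 25.3 in parental cells (-3.37, SE 0.33, adjusted p = 0.00197). The smallest was that of Vangl2, at 148 and 146 CPM in clone 2, 150 and 149 in clone 1, and 204 and 205 in parental cells (-0.43, SE 0.08, adjusted p = 0.0162), lost without either parental library (0.289 and 0.282). With single libraries as replicates, 3 of the 13 planar cell polarity genes were higher and 9 lower in each clone. That is 92.3%, against 53.5% of all genes in clone 2 and 54.5% in clone 1. Of 16 genes described elsewhere as Wnt targets, 2 rose and 3 fell with the clones as replicates (31.2%, against 26.7% of all genes). Ccnd1, which encodes cyclin D1, was at 478 and 489 CPM in clone 2, 281 and 295 in clone 1, and 45.4 and 43.4 in parental cells (3.15, SE 0.27, adjusted p = 0.00158). Tbx3, a transcription factor gene, was at 0.106 and 0.130 CPM in clone 2 and 0.229 and 0.160 in clone 1, against 3.93 and 4.02 in parental cells (-4.63, SE 0.30, adjusted p = 0.000624). Of the other Wnt ligands 7 were tested and 4 fell (57.1%, against 13.6% of all genes). They were Wnt6, Wnt8b, Wnt9a and Wnt10a, all with a mean under 1 CPM and named after their values were seen. Of these Wnt8b and Wnt10a reached the filter's cutoff in parental columns only, so their lower values are a description.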

How the data were processed

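RNA was sequenced from 6 libraries of cultured mouse cells. The labels' protocols name RNeasy columns for the RNA and, for the libraries, the SMART-Seq or the TruSeq kit, and assign neither kit to a library. The deposited file holds the authors' whole-number counts per gene, not normalized; the submitters' processing notes list STAR, featureCounts, GRCm38.p6 and mm10. Tool versions and the settings for strand and multi-mapping reads were not stated.

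Members were matched by the symbols of the file. Members, lists and tests were chosen with earlier results of these data known. Tests ran in edgeR 4.0.16 under R 4.3.3 (filterByExpr at a minimum count of 10, TMM scaling, robust quasi-likelihood test, Benjamini-Hochberg adjustment at 0.05 over all genes tested). Labelled knockout against parental used the summed libraries of each clone, 4 columns with 2 residual degrees of freedom. The comparisons of single clones used 1 fit of 6 libraries with 3 residual degrees of freedom. Each SE is the absolute log2 fold change divided by the square root of F. The pairs of libraries had correlations of log2 CPM of 0.9919 to 0.9934 across genes. No pair agreed within sampling noise, with a chi-square per gene of 4.99 in clone 2, 23.0 in clone 1 and 3.67 in parental cells. The fit of 6 libraries shares 1 estimate of a gene's spread over the groups, so it can understate the spread within clone 1. The scripts were tested on simulated data. Positions and merged exon lengths came from GENCODE M21 (GRCm38), which holds 41869 of the 42365 IDs, and promoters from RefSeq (GRCm38.p6). Members are given in every library where called with a log2 fold change of at least 1 in size in labelled knockout against parental or between the clones; other values are given for the lowest, highest or related members of a role. Of the other pathway genes, those named are the called ones with the largest and the smallest log2 fold change of a list, where the gene averaged 1 CPM or more. Alternatives were DESeq2 1.42.0, other scalings and filters, libraries as replicates, a replicate block and leaving out each library. The gene targeted in the clones is not reported here.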

Additional observations from a re-analysis of the deposited data

Results flagged for a closer look

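A direct test of clone 2 against clone 1 flagged 11 members. They had a called difference of at least 1 on the log2 scale, or an effect called in each clone and in opposite directions. The parental libraries cancel in the fold change, but the fit took its filter, scaling and spread from all 6 libraries. The differences (log2 fold change, clone 2 against clone 1) were -2.83 for Fzd6, -2.13 for Lgr6, -1.89 for Notum, -1.86 for Wnt4, -1.74 for Wif1, -1.66 for Rnf43 (-0.85 and not called without the second library of clone 1), -1.65 for Ror1, -1.29 for Apcdd1 and -1.11 for Tcf7. Sfrp2 differed by 1.80 the other way. Porcn, with 22.3 and 23.9 CPM in clone 2 and 16.3 and 17.3 in clone 1, against 18.6 and 20.1 in parental cells, was called higher in clone 2 and lower in clone 1 and differed by 0.46 (SE 0.07, adjusted p = 0.000128). Its call in clone 1 was lost without parental library 2 (adjusted p = 0.196), with no filter on low counts (0.0912), without the first library of clone 1 (0.15) or without either library of clone 2 (0.059 and 0.0589), and its call in clone 2 without parental library 1 (0.106). Each clone is a pair of libraries, so these tests compare these clones and not genotypes.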

How the results depend on the processing

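No called member changed direction under any alternative run. For labelled knockout against parental, 15 members rose, 6 fell and 6532 of 24506 genes passed (26.7%). A mean of at least 5 CPM left 1 member lower, by construction of the filter, and 3795 of 11025 genes (34.4%). Libraries as replicates gave 19 members lower (39.6%, against 28.5% of all genes) and 13213 of 23400 genes (56.5%). With a replicate block they gave 19 lower (39.6%, against 28.4%) and 13140 genes (56.2%). Sfrp1 and Lgr6 count among the 19 in both runs and are no support for a fall. Leaving out each library gave 8 to 16 members higher, 4 to 9 lower and 2529 to 6714 genes, the lowest counts being those without either parental library. For clone 1 the filter at 5 CPM gave 8019 of 11019 genes (72.8%) in place of 12752 of 23400 (54.5%). For clone 2 it gave 7847 of 11019 genes (71.2%) in place of 12520 of 23400 (53.5%). There 12 of 35 members were lower (34.3%) in place of 20 of 48 (41.7%). Replicate numbers did not pair the samples (correlations of deviations -0.0143 to 0.0169), and the block changed no member's call in the comparisons of single clones. DESeq2 called 24 members, 20 of them among the 21, and libraries as replicates called 40, all 21 among them. Depth limited Dkk1, Sp5, Sfrp1 and Lgr6.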
